A study of Homo sapiens with 2 samples.

Results

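The Mediator complex was examined through 33 genes: every protein-coding gene of the deposited table whose symbol is MED followed by a number (with or without L), and CDK8, CDK19 and CCNC. They are 33 of 62700 gene rows. Of the 33, 7 encode the kinase module (MED12, MED12L, MED13, MED13L, CDK8, CDK19 and CCNC), which was kept apart, and 26 encode the core. The rule picks members by name and uses no measured value, though it was chosen with earlier results of these data known.

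Mediator is a large assembly that carries signals from transcription factors bound at enhancers to RNA polymerase II at promoters. Its core is described as a head and a middle, which contact the polymerase, and a tail, which binds many activators, held together by the long subunit MED14. The kinase module docks reversibly on the core and holds a cyclin-dependent kinase, CDK8 or its paralog CDK19, with cyclin C (CCNC), MED12 or MED12L, and MED13 or MED13L. Mediator and cohesin are known to occupy many of the same enhancers and promoters, and the cohesin loader NIPBL was found to bind Mediator.

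The data are poly(A) RNA of K562, an established human erythroleukemia line, in 2 libraries. Both came from cells of genotype E50_dCas9-KRAB, titled WT; dCas9-KRAB is a Cas9 without nuclease activity joined to a repressor domain, and the labels do not explain E50. The control group (sgRNA_Control) received a control guide RNA and the other group (sgRNA_SMC1A) a guide against SMC1A, which encodes a subunit of the cohesin ring. In both, the guide came by lentivirus with a blue fluorescent marker, 1 µg/ml puromycin was applied from day 2 to day 6, and brightly blue cells were sorted at harvest.

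Each guide had 1 library, so there is no replicate check and no p-value. Every difference is between these 2 libraries, and each 95% interval is an exact (Clopper-Pearson) interval that covers counting error only. The libraries held 18349209 counts (control guide) and 16864207 counts (SMC1A guide). Levels are given as CPM, the count scaled to library size. SMC1A itself was at 460 CPM (8077 counts) in the control library and at 16.3 CPM (288 counts) in the library of its own guide, a log2 ratio of -4.81 (-4.99 to -4.65). K562 and erythroid markers were well counted, and several differed between the libraries: HBG2 was at a log2 ratio of -1.68, HBZ at -1.56, HBG1 at -1.50, TFRC at -1.41 and GATA1 at -0.56, against 0.26 for TAL1 and 0.62 for HBE1. Of 6 T and B cell markers 2 were at 0 in both libraries (summed level 16.1 and 20.1 CPM, mostly CD3D), as were 2 of 6 monocyte and granulocyte markers (18.5 and 25 CPM, mostly LYZ). Of 7 fibroblast and epithelial markers 0 were at 0 (1070 and 1090 CPM). Among them COL3A1 had 2 and 154 counts and COL1A1 64 and 233, while COL1A2 had 70 and 42, EPCAM 2978 and 2019, KRT18 6331 and 5358, KRT8 9304 and 11443, and DCN 2 and 6. In bulk RNA, fewer cells of a type and less RNA per cell cannot be told apart, and what such markers contribute to the Mediator values was not tested.

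Mediator RNA lay close to its control level apart from a few genes. Of the 33 members, 32 had at least 100 counts over both libraries, the minimum used here, and MED12L had none. Of these 32, 0 reached 2-fold in either direction in the SMC1A library, whereas 5.11% of all 11321 genes with at least 100 counts were that much higher and 2.32% that much lower. At least 1.5-fold higher was 1 member, CDK19 (12.2% of all genes were), and at least 1.5-fold lower was 1 member, MED26 (9.06% of all genes). The other 30, or 93.8%, stayed within 1.5-fold, as did 78.8% of all genes.

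The median log2 ratio (SMC1A guide over control guide) of the 32 members was -0.12, and that of all genes tested was -0.05. Ratios below 0 were found for 22 of the 32, or 68.8%, and for 54.3% of all genes. The members' standard deviation was 0.26 and that of all genes 0.64. Genes with fewer counts scattered more. When all genes tested were divided into 5 equal groups by count, the standard deviation was 0.95 in the group with the fewest counts and 0.44 in the group with the most. From the fewest counts to the most, the groups held 4, 5, 8, 8 and 7 of the 32 members. In the same order, the median over all genes was 0.19, 0.02, -0.04, -0.10 and -0.19. With the trend with expression level removed, the member median was -0.09 and that of all genes -0.05. By library totals they were 0.01 and 0.08. The counting interval lay wholly below 0 for 12 members, 37.5% of them, against 38.7% of all genes. It lay wholly above 0 for 2, CDK19 and MED29, or 6.25%, against 29.4% of all genes. By library totals, 13 of the 32 member ratios moved outside these intervals. Both tallies therefore depend on the scaling and hold for TMM scaling only. Summed over all members, the counts were 36976 and 34401, which is 0.202% and 0.204% of the library totals. With the TMM scaling used for the ratios, the log2 ratio of this sum was -0.11 (-0.13 to -0.09).

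**Figure D1:**
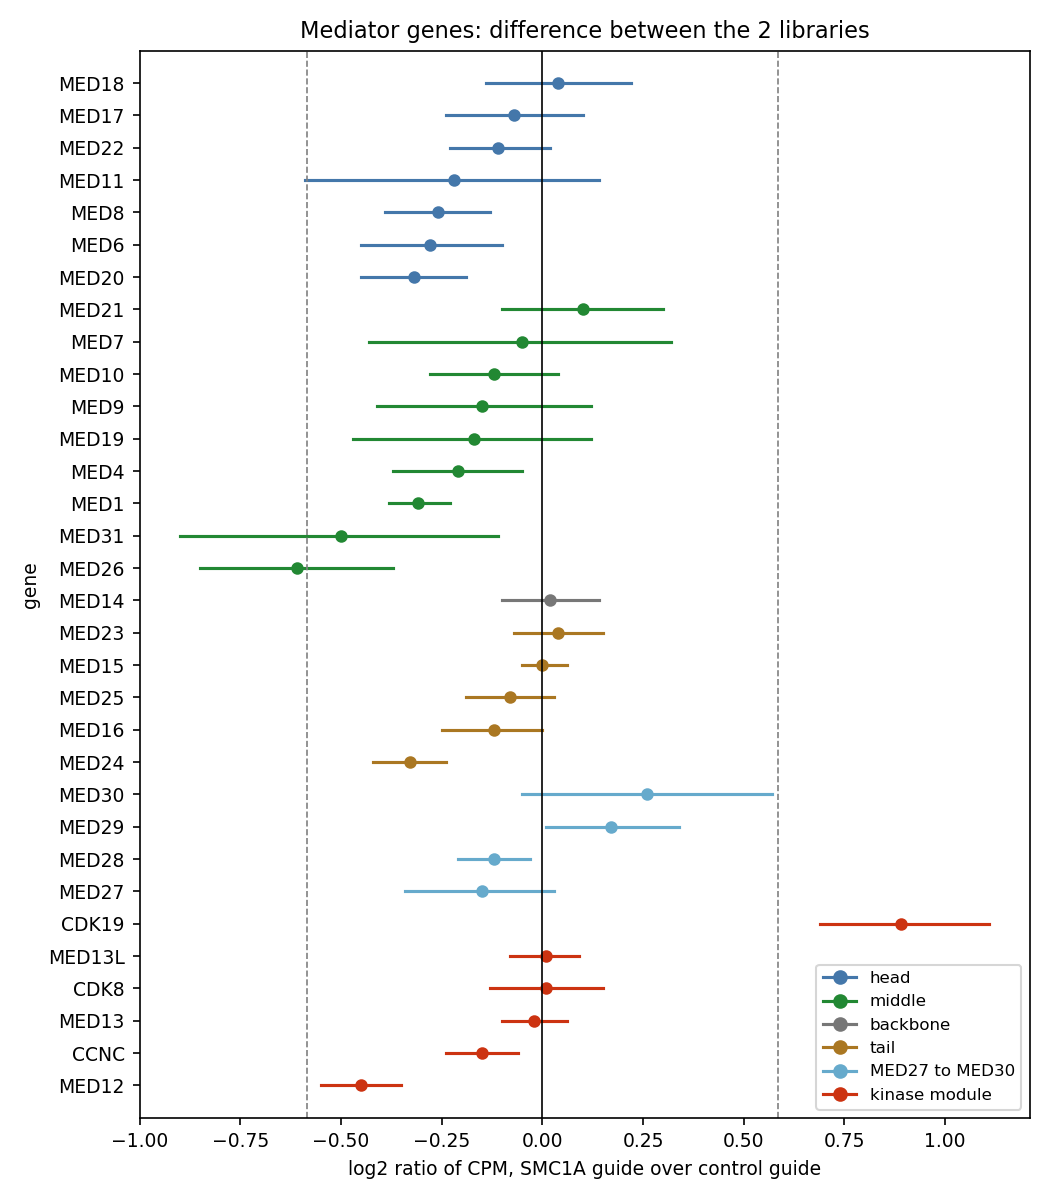
Log2 ratio of CPM (horizontal axis, SMC1A guide over control guide) of the 32 counted Mediator genes, 1 per line and coloured by module; points are the ratio and lines the 95% counting interval, with 1.5-fold marked by dashed lines. CDK19 at 0.89 stands apart on the right, and MED26 at -0.61 is lowest.

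**Figure D2:**
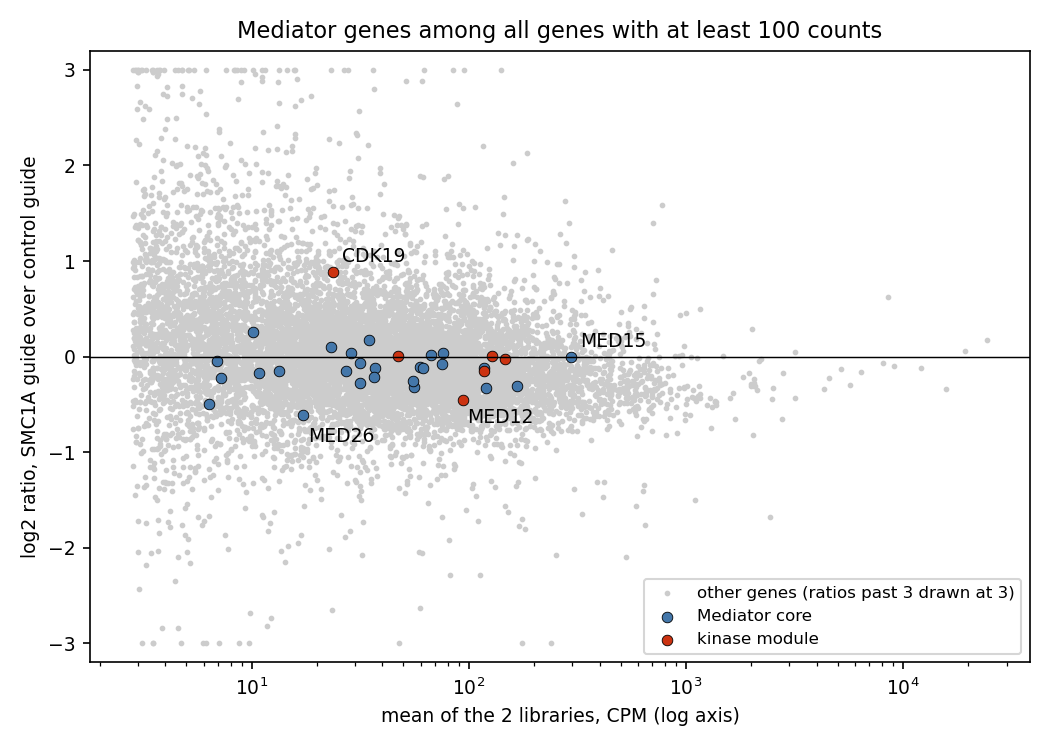
Log2 ratio (vertical axis) against the mean CPM of the 2 libraries (horizontal log axis) for all 11321 genes with at least 100 counts in grey, the Mediator core in blue and the kinase module in red. The members lie between -0.61 and 0.89 in a cloud whose spread is widest at low CPM.

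The kinase module held the member with the highest ratio. In the SMC1A library CDK19 was higher, MED12 was lower, and CDK8, MED13 and MED13L differed by 0.02 or less on the log2 scale. The module's median over its 6 counted genes was -0.01, against -0.12 for the 26 core genes, with standard deviations of 0.45 and 0.19. Without CDK19 the 5 remaining kinase genes had a median of -0.02 and a standard deviation of 0.20, close to that of the core. Summed, the module had 10026 counts in the control library and 9583 in the SMC1A library, 27.1% (26.7 to 27.6) and 27.9% (27.4 to 28.3) of all Mediator counts. Divided by transcript length, the module's share was 19.2% and 19.5%.

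CDK19 (ENSG00000155111.15, chromosome 6, 110609978 to 110815958, minus strand, GRCh38) encodes the alternative kinase of the module. It had 291 counts in the control library and 544 in the SMC1A library, or 16.6 and 30.8 CPM. The SMC1A library was therefore 1.86-fold higher (log2 ratio 0.89, interval 0.69 to 1.11). Of the 11321 genes tested, 737 had a higher ratio. The interval reaches past 2-fold, and by library totals alone the ratio was 1.02, so that CDK19 then passes 2-fold.

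CDK8 (ENSG00000132964.13, chromosome 13, 26254104 to 26405238, plus strand) encodes the paralogous kinase. It had 822 and 832 counts (46.9 and 47.2 CPM), a log2 ratio of 0.01 (-0.13 to 0.15). CDK8 thus showed no difference detectable at this depth, while its paralog lay wholly above 0. The pair can be compared within each library, where no scaling between libraries enters. CDK19 made up 26.1% (23.6 to 28.8) of the CDK8 and CDK19 counts in the control library and 39.5% (36.9 to 42.2) in the SMC1A library. Divided by transcript length, the CDK19 share was 14.8% and 24.2%. The annotated transcripts of CDK8 and CDK19 had 0 stretches of 31 bases in common.

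The 2 kinase genes together had 1113 and 1376 counts, a log2 ratio of 0.30 (0.18 to 0.41). CCNC, the cyclin that both kinases bind, was at 2183 and 1979 counts (log2 ratio -0.15, -0.24 to -0.06). There were 0.51 kinase counts per CCNC count in the control library and 0.695 in the SMC1A library. CDK8 alone went from 0.377 to 0.42 per CCNC count and CDK19 from 0.133 to 0.275.

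Upstream sequence of this diverging pair is shown because the paralogs differed between the libraries to unequal extents. The RefSeq windows (GRCh38.p14) of the 250 bases before the first listed start were searched on both strands for the TATA box TATAAA, the NF-Y motif CCAAT, the SP1 motif GGGCGG, the ETS core CGGAAG and the GATA motif AGATAA, which do not overlap each other in the CDK8 and CDK19 windows. The runs below stop before the first base that either RefSeq or GENCODE places in a transcript, which leaves 225 bases for CDK8 (chr13:26253879-26254103, plus strand) and 147 for CDK19 (chr6:110815959-110816105, minus strand). Capitals mark matches to these motifs on either strand.
CDK8: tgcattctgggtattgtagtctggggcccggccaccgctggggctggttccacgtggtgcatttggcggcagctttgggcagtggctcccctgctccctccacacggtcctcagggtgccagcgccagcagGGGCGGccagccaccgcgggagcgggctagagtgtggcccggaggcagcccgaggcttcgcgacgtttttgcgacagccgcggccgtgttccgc
CDK19: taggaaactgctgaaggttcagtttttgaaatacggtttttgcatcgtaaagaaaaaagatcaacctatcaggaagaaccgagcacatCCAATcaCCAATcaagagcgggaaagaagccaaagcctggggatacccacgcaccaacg

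The full CDK19 window held CCAAT 3 times, 2 of them in the printed run, and GGGCGG once, past its end. The CDK8 window held GGGCGG once and CCAAT 0 times. CCAAT was present in 33.0% of all 27305 windows of this length and in 10 of the 25 Mediator windows. GGGCGG was present in 42.3% of all windows and in 15 of the 25. CGGAAG was in 16.8% of all and 8 of 25, TATAAA in 11.1% and 2 of 25, and AGATAA in 9.37% and 1 of 25, the last of them the window of MED1. The CDK8 window had 21 CpG and a GC content of 68.8%, and the CDK19 window had 13 CpG and 52.0%. The Mediator windows ranged from 8 CpG (MED19) to 40 (MED13L), with a median of 17 against 11 for all genes. For 20 of the 25 Mediator windows, a stretch of 30 bases shortly past the listed start lay within the early part of a GENCODE transcript of that gene. This does not show that the listed start is a GENCODE start. The windows of MED7, MED15, MED24 and MED26 lie inside the GENCODE span of their own gene, so they are not upstream of all its transcripts. Windows of MED6, MED8, MED13, MED14, MED21, MED22, MED28 and MED30 were not used here. A match is a string of letters and not evidence of binding.

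MED12 (ENSG00000184634.17, chromosome X, 71118556 to 71142454) encodes the subunit that activates the kinase within the module. It had 1903 counts in the control library and 1399 in the SMC1A library, or 108 and 79.3 CPM. Its log2 ratio of -0.45 (-0.55 to -0.35) was the lowest in the module, and the level was 1.37-fold lower. By library totals the ratio was -0.32. Its paralog MED12L (chromosome 3, 151085697 to 151437072) had 0 counts in both libraries, which allows up to 0.171 and 0.17 CPM. With that limit of 3 counts, MED12L was at most 0.158% and 0.214% of the pair's counts, and the exact intervals reached 0.194% and 0.263%. The lower MED12 level had no counted paralog beside it.

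MED13 and MED13L encode the large subunits that join the kinase module to the core. MED13 had 2577 and 2559 counts (log2 ratio -0.02, -0.10 to 0.06). MED13L had 2250 and 2270 (0.01, -0.08 to 0.09). MED13L was 46.6% (45.2 to 48.0) of the pair's counts in the control library and 47.0% (45.6 to 48.4) in the SMC1A library, so the intervals overlap, unlike those of the kinase pair. Set against these partners, MED12 made up 28.3% (27.2 to 29.4) of the MED12, MED13 and MED13L counts in the control library and 22.5% (21.4 to 23.5) in the SMC1A library. Divided by transcript length, the MED12 share was 40.5% and 33.4%. FBXW7, which encodes a ubiquitin ligase subunit known to target MED13 and MED13L proteins, was at 568 and 576 counts (0.01, -0.16 to 0.18).

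**Figure D3:**
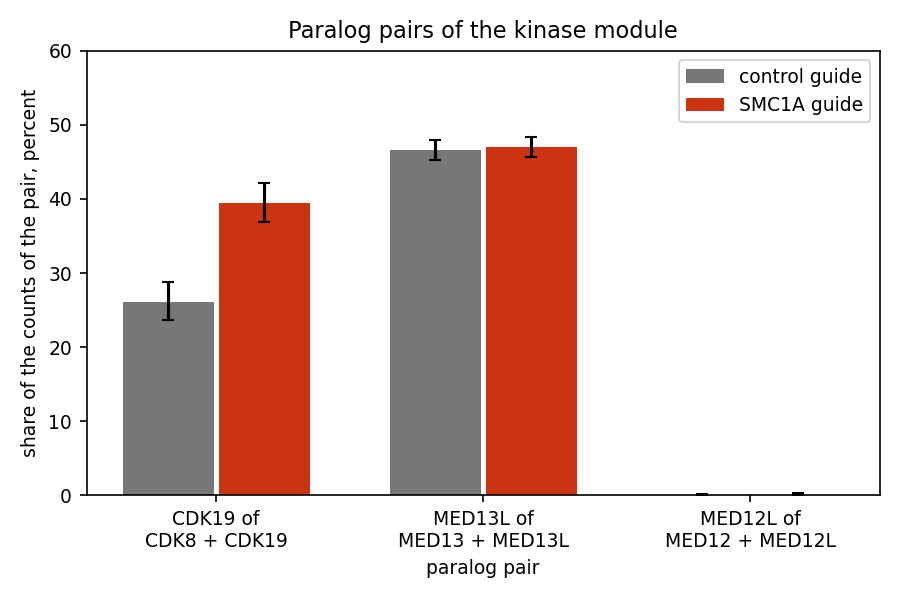
Share of the counts of each kinase-module paralog pair (percent, vertical axis) that came from the second paralog, by guide; bars are the share in 1 library and error bars the exact 95% binomial interval. CDK19 goes from 26.1% to 39.5% of its pair, MED13L stays near 47.0%, and MED12L is at 0 in both libraries.

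Middle subunits, which sit along the polymerase-binding face and include targets of nuclear receptors, had a median of -0.17 over 9 genes. Of the 9, 8 were below 0, as were 54.3% of all genes and 68.8% of all members, and by library totals MED7 (0.07) and MED10 (0.01) were above 0. MED26, which recruits elongation factors to Mediator, had the lowest ratio of all members. MED26 (ENSG00000105085.11, chromosome 19, 16574907 to 16629062) had 366 counts in the control library and 241 in the SMC1A library, or 20.9 and 13.7 CPM. It was 1.52-fold lower (log2 ratio -0.61, -0.85 to -0.37), and by library totals -0.48, short of 1.5-fold. In the annotation MED26 shares its strand with overlapping genes, of which ENSG00000268790 had 43 and 68 counts, so the division of reads between them is uncertain.

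MED31, a small and conserved middle subunit, had 131 and 93 counts. Its ratio of -0.50 carried a wide interval (-0.90 to -0.11). MED1, the subunit through which nuclear receptors and GATA1 are known to contact Mediator, was measured far more deeply. It had 3218 and 2611 counts (183 and 148 CPM), a ratio of -0.31 (-0.38 to -0.23). MED4 was at -0.21 (-0.37 to -0.05). The intervals of MED7, MED9, MED10, MED19 and MED21 all held 0, with ratios from -0.17 for MED19 to 0.10 for MED21. MED14, the backbone subunit, had 1165 and 1186 counts and a ratio of 0.02 (-0.10 to 0.14).

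Head subunits, which contact the polymerase and the general initiation factors, had a median of -0.22 over 7 genes. MED20 had 1087 and 878 counts (-0.32, -0.45 to -0.19). MED6 had 606 and 503 (-0.28, -0.45 to -0.10), and MED8 1056 and 887 (-0.26, -0.39 to -0.13). The intervals of these 3 lay below 0, which is 42.9% of the head genes, against 38.7% of all genes tested. Those of MED11, MED17, MED18 and MED22 held 0. MED17, a central scaffold of the head, was at 565 and 541 counts (-0.07, -0.24 to 0.10), and by library totals its sign turned (0.06).

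Tail subunits had a median of -0.08 over 5 genes. MED15, a docking site for activators such as the sterol-response factors, had the most counts of any member, 5172 and 5212. Its ratio of 0.00 (-0.05 to 0.06) had the narrowest interval of the members. MED24 had 2350 and 1880 counts (-0.33, -0.42 to -0.24), the lowest ratio of the tail. MED23 (0.04), MED25 (-0.08) and MED16 (-0.12) differed less. MED23 and MED24 are known to associate within the tail, and their intervals did not overlap (-0.07 to 0.15 for MED23).

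MED27, MED28, MED29 and MED30 join head and tail and have been assigned to either. MED29 had 575 and 651 counts (0.17, 0.01 to 0.34). MED30 had 161 and 194 (0.26, -0.05 to 0.57). MED28 had 2159 and 1999 (-0.12, -0.21 to -0.03), and MED27 500 and 452 (-0.15, -0.34 to 0.03). Ratios of both signs thus stood in this group of 4, all within 1.5-fold.

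Levels of different subunits were compared per length, as counts per kilobase of the longest annotated transcript, scaled so that all genes sum to the same total. With the control guide, MED15 was highest (144) and CCNC next (115), then MED24 (78.8), MED10 (76.9), MED1 (71.9) and MED8 (71.7). CDK19 was lowest of the 32 (6.08), below MED7 (6.69), MED9 (9.66), MED31 (10.3) and MED26 (12.3). CDK8 stood at 35.1, MED12 at 35.6, MED13 at 32.1, MED13L at 20.1 and the backbone gene MED14 at 19.1. CDK19 and MED26 were thus both among the 5 lowest members. With the SMC1A guide CDK19 was at 12.5 and no longer lowest, and MED7 (7.10) was. The order depends on the length used: with the median length of the coding transcripts, a choice made after seeing the data, MED15 (160) and CCNC (139) were again highest, MED20 stood at 116 in place of 54.5, and CDK19 was again lowest (4.79). The level scale adds 0.14 to every log2 ratio, so differences between libraries are read from the CPM ratios.

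**Figure D4:**
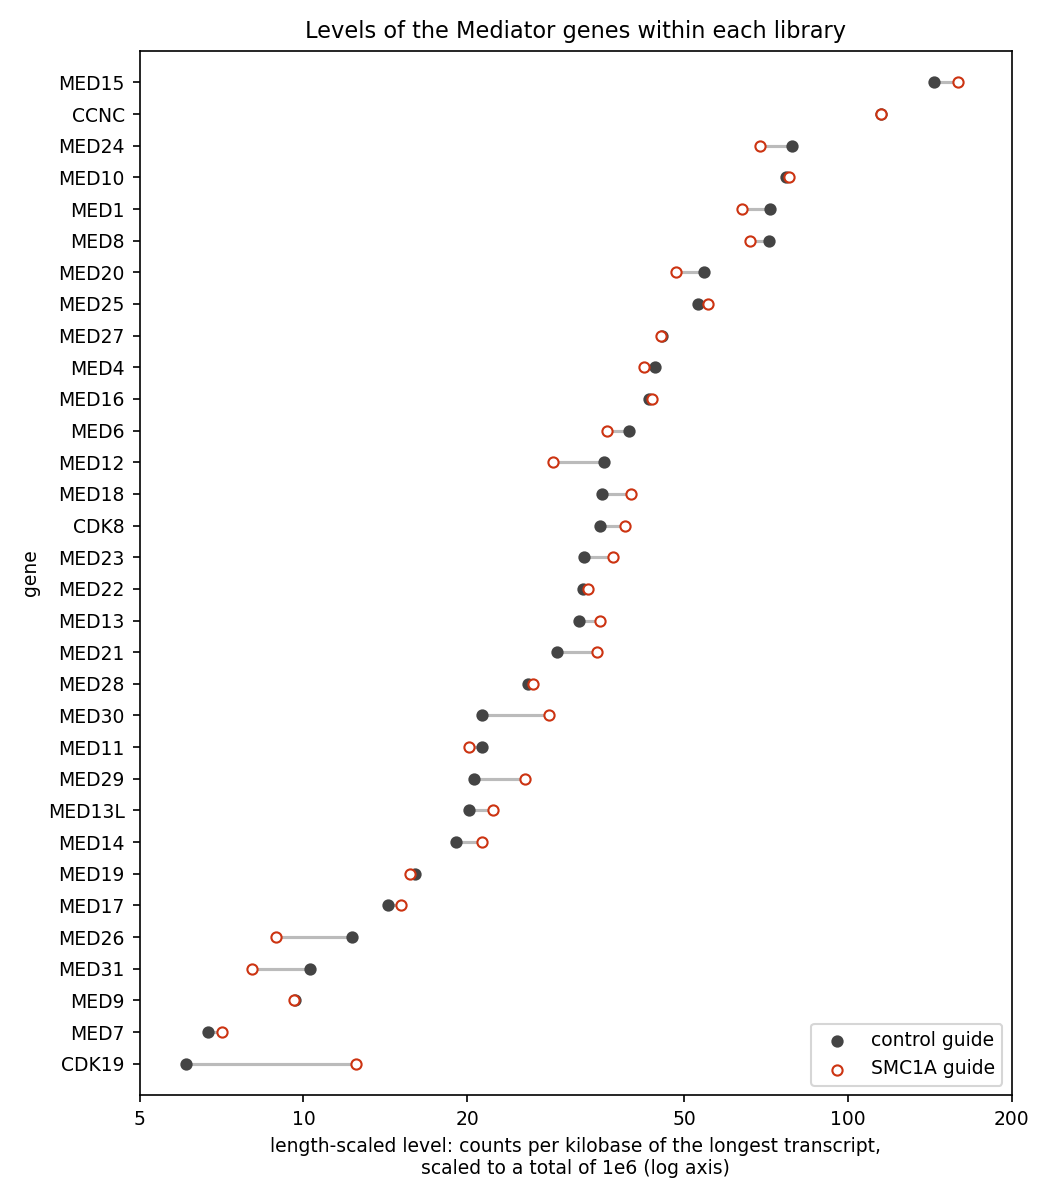
Length-scaled level (horizontal log axis, counts per kilobase of the longest transcript, scaled to a fixed total) of the 32 counted members, with filled points for the control guide and open points for the SMC1A guide, ordered by the control level. MED15 is highest at 144 and CDK19 lowest at 6.08, and CDK19 shows the longest line between the guides.

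Genes beside CDK19 and MED26 were listed after the values of both had been seen. Within 500 kb of the CDK19 start, 4 protein-coding genes had at least 100 counts. Among them 0 were higher by 1.5-fold, against 12.2% of all genes tested, and 2 were lower by 1.5-fold, against 9.06%. With only 4 genes, these counts say little about the region. AMD1, a polyamine synthesis gene 58.8 kb away, had 4352 and 2735 counts and was at -0.68 (-0.75 to -0.61). RPF2, a ribosome assembly gene, was at -0.59 (-0.68 to -0.50), GTF3C6 at 0.02 and MFSD4B at -0.11. The higher CDK19 level was therefore not shared by these neighbours. Around MED26, 12 genes were measured with a median of -0.08, from CHERP at -0.49 to ENSG00000268790 at 0.64.

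Overlapping and copied genes were checked for reads that could be divided. The 22 pseudogenes named after members had at most 5 counts in the control library and 10 in the other. Genes that overlap a member on its strand had at most 82 and 137 counts, the highest beside MED21. On the other strand, TAF1D, which overlaps MED17, had 3084 and 2098, and THRA, which overlaps MED24, 839 and 511. The library kit preserves strand, per the labels' protocols.

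Other genes of the transcription machinery were summarised in 4 lists. Of 12 RNA polymerase II subunit genes, 0 were 1.5-fold higher and 0 lower, against 12.2% and 9.06% of all genes tested. Their median was -0.21, from POLR2H (-0.52) and POLR2F (-0.44) to POLR2A (0.01), which encodes the largest subunit, and POLR2G (0.05). Of 31 general initiation factor genes, 0 were 1.5-fold higher and 2 lower, against the same 12.2% and 9.06%. Their median was -0.14. GTF2A1, a TFIIA gene, was at 0.53 and TAF7 at 0.27. GTF2H3, a TFIIH gene, was at -0.68.

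Of 22 measured genes of pausing and elongation, 0 were 1.5-fold higher and 1 lower (median -0.16), against 12.2% and 9.06% of all genes. ELL2, an elongation factor gene, was at -0.75 and SUPT4H1 at -0.56, while AFF4, the scaffold of the super elongation complex that MED26 helps to recruit, was at 0.47 (0.36 to 0.58). The median of the 20 coactivator and partner genes was 0.04. Among them 1 was higher by 2-fold or more (5.11% of all genes) and 0 lower by 1.5-fold (9.06%). That gene was NCOA2, a nuclear receptor coactivator, with 309 and 721 counts (1.21, 1.02 to 1.41). NIPBL was at 0.38, KAT2A at -0.31 and NCOA3 at -0.19. The Mediator median of -0.12 lay within the range of these 4 medians.

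The other kinases of transcription can be set beside CDK8 and CDK19. CDK7, the kinase of TFIIH, had 501 and 292 counts (28.6 and 16.6 CPM) and the lowest ratio of its list, -0.78 (-1.0 to -0.58). Its partners CCNH and MNAT1 were at -0.14 (-0.30 to 0.02) and -0.21 (-0.42 to 0.01). CDK9, the kinase of P-TEFb, had 753 and 963 counts (0.35, 0.21 to 0.49), and its cyclins CCNT1 and CCNT2 were at -0.14 and -0.04. CDK12 and CDK13, elongation kinases named after their values were seen, were at -0.30 and 0.22, and their cyclin gene CCNK at -0.33. The kinase genes thus had ratios of both signs, and no test was made of kinase against cyclin genes.

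**Figure D5:**
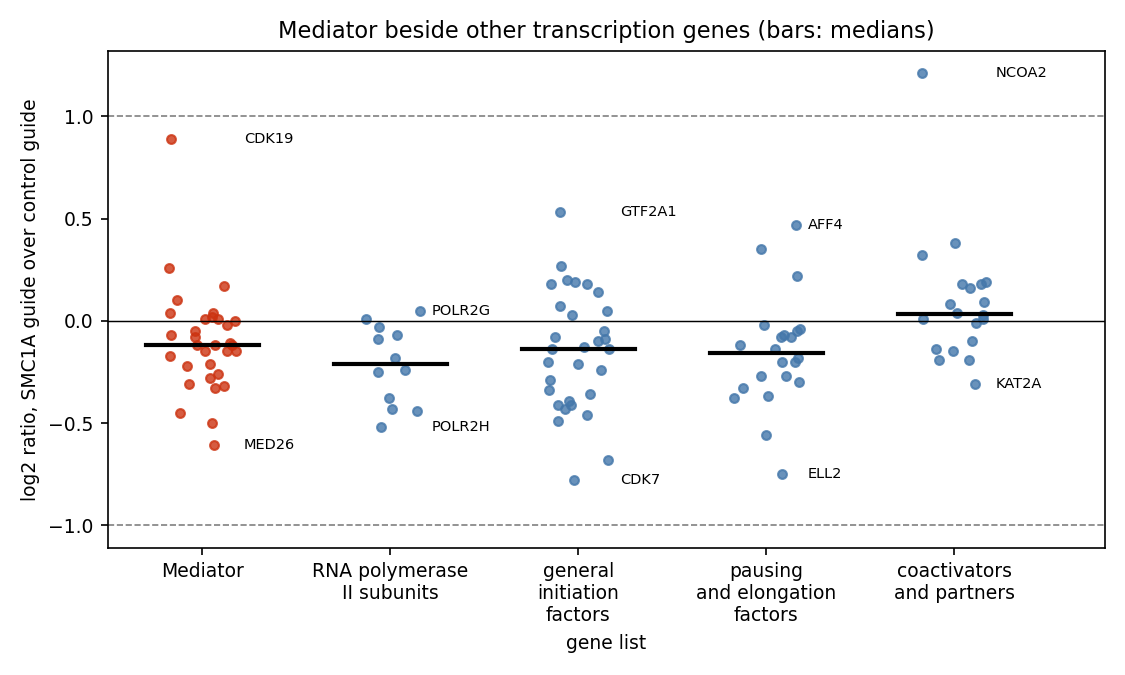
Log2 ratio (vertical axis, SMC1A guide over control guide) of each measured gene of Mediator (red) and of 4 other lists of transcription genes (blue), with bars at the medians and 2-fold marked by dashed lines. CDK19 at 0.89 and NCOA2 at 1.21 are the highest of their lists, and CDK7 at -0.78 is the lowest point.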

How the data were processed

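RNA of 2 K562 libraries was analysed, 1 per guide. The authors deposited estimated counts per gene, unscaled and in whole numbers. The tools named by the authors, per the submitters' processing notes, were Salmon 1.10.1, STAR 2.7.10a and DESeq2 1.42.1, and the build was GRCh38; the annotation is not given in the sources used here. All 62700 gene identifiers matched the gene-name table. Positions, gene types and transcript lengths come from GENCODE release 29 (GRCh38), which held 97.9% of the genes tested and all 33 members.

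Libraries were scaled with TMM factors (edgeR 4.0.16, R 4.3.3). Log2 ratios were computed as in edgeR, with 1 as the prior count, and intervals are exact (Clopper-Pearson) at 95%. They cover counting error only, and the reads carry no molecular identifiers, so they are not independent molecules. For a count of 0 the upper limit was set at 3 counts. Genes with at least 100 counts over both libraries were tested against fixed folds of 1.5 and 2. Python 3.11.15, scipy 1.17.1 and pandas 2.3.3 did the rest, and the code was tested on simulated data.

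All members, SMC1A, the 2 highest and 2 lowest genes of each of the 4 lists, the kinases and cyclins of TFIIH and P-TEFb, NIPBL and FBXW7 were named by rule; other genes were named after their values were seen. The members and lists were chosen with earlier results of these data known. The alternatives tried changed the scaling (to size factors of DESeq2 1.42.0 and others), the prior count or the count minimum, or called for removal of trends with level and length. An erythroid marker is not reported here.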

Additional observations from a re-analysis of the deposited data

How the results depend on the processing

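With library totals as the scaling, the median over all genes tested shifted by 0.13, to 0.08. Under it 1 of 32 members, CDK19, was at least 2-fold higher, beside 766 of the 11321 genes tested. At least 1.5-fold lower were 0 members, beside 640 of all genes tested. In sign, 7 of 32 members turned (MED7, MED10, MED13, MED17, MED22, MED25 and MED28), each within 0.12 of 0 before. With the trend with expression level removed, 2 members were at least 1.5-fold lower, MED26 (-0.67) and MED31 (-0.71), beside 1112 of all genes tested. Under that setting MED13 turned in sign. MED13L turned under TMM without mitochondrial and globin genes, and MED13L and MED14 with the length trend removed. With the whole counting interval past the fold, 0 members were 1.5-fold lower and CDK19 was 1.5-fold higher, beside 538 and 785 of all genes tested. Over all settings CDK19 lay between 0.84 and 1.02, MED26 between -0.67 and -0.48, and MED12 between -0.50 and -0.32. The kinase module's median minus that of the core was 0.12, and between 0.00 and 0.22 over the settings. Per length, the CDK19 share of its pair was 14.8% and 24.2% in place of 26.1% and 39.5%, and the MED13L share 38.5% and 38.8%.

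Among all genes, the number at least 2-fold higher and lower was 579 and 263, against 1361 and 518 with a minimum of 20 counts, 199 and 140 with 500, 3800 and 2714 with none (genes at 0 in both left out), and 343 and 143 by the whole interval. At least 1.5-fold higher were 1376, against 2544 with 20 counts, 616 with 500, 6664 with none and 785 by the whole interval. At least 1.5-fold lower were 1026, against 640 by library totals, 4073 with no minimum and 538 by the whole interval. The cause of these changes was not tested beyond the setting itself. With 1 library per guide, no replicate could be left out. No paired analysis was possible because each group has 1 library and no test was run. Low counts limit MED7, MED11, MED19, MED30 and MED31, whose intervals are the widest of the members.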
